A study of Mus musculus with 6 samples.

Results

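C1q-positive macrophages were followed in tumours of the mouse colon by droplet-based single-cell RNA sequencing. A cell was taken as a member on its own measured counts of unique molecular identifiers (UMIs, which mark single RNA molecules): at least 3 UMIs of C1qa, C1qb and C1qc together from at least 2 of the 3 genes, fewer than 3 of Arg1, at most 1 of Csf3r, and none of Cd3e, Cd79a, Epcam or Flt3. Cells needed 200 or more genes, and no more than 20% of their UMIs could be mitochondrial. This chose 2519 of 50875 kept cells, 306, 376 and 216 in the libraries Apc ICI 1, 2 and 3, then 601, 350 and 670 in AOM PN libraries 1 to 3. The 9 genes of the rule are therefore described below and not tested.

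All 6 libraries came from whole colon tumours of male mice that carried the tamoxifen-inducible VilCreER, a recombinase driven in the intestinal epithelium. The Apc ICI mice were VilCreER Apcfl/fl, and were given 70 µl of 100 µM 4-OH tamoxifen into the colonic submucosa; Apc encodes an inhibitor of Wnt signalling. The AOM PN mice were VilcreER P53fl/fl Notch1Tg. They had 2 mg of tamoxifen into the peritoneum and, from day 4, weekly azoxymethane (AOM, a colon carcinogen) at 10 mg/kg for 6 weeks. Tumours were taken at the clinical endpoint of the mice, whose age was not given in the sources used here. The labels number 3 replicates in each model and do not say that they are separate animals, so a p-value here covers the spread among these libraries and may be technical. Genotype, carcinogen, route of induction and any batch shared by a group's libraries cannot be told apart.

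C1q is the recognition molecule of the classical complement pathway. It is built from the chains encoded by C1qa, C1qb and C1qc, and tissue macrophages are its main source in mice. In the gut, monocytes enter continually and mature into macrophages that take up dying cells, hold MHC class II and make C1q. In tumours such cells lie beside more inflammatory or hypoxic macrophages, for which Arg1, encoding arginase, is a common marker in mice.

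The members carried macrophage genes, and of the genes linked to resident macrophages some were well measured and 4 receptors often used to define such cells were rare. After each member of at least 1500 UMIs was thinned to 1500, Apoe, the lipid carrier apolipoprotein E, was found in 90.6% ± 5.27 of Apc ICI and 86.7% ± 2.07 of AOM PN members (SD, n = 3 libraries each). Csf1r, the receptor for the macrophage growth factor, was found in 44.3% ± 5.82 and 53.4% ± 4.89. Among T cells, taken as cells with at least 2 Cd3e UMIs, these shares were 10.4% and 7.25% for Apoe and 1.01% and 2.54% for Csf1r. The median UMIs of these T cells were 6182 to 8074 and 5451 to 9383 before thinning.

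Cd163, Lyve1, Folr2 or Timd4, receptors of resident macrophages in many tissues, gave a UMI in 1.24% ± 0.594 and 1.07% ± 0.169 of thinned members. The share among T cells was 0% in the 3 Apc ICI libraries and 0.629% ± 0.327 in AOM PN. Before thinning, all members together held 4 and 2 UMIs of Cd163, 1 and 0 of Lyve1, 20 and 7 of Folr2 and 0 and 0 of Vsig4, a complement receptor, in Apc ICI and AOM PN. Timd4 was then found in 0.266% to 0.463% of Apc ICI members, against 1.33% to 4.00% in AOM PN, and in 0% and 0.794% to 2.59% of T cells. Cx3cr1, the fractalkine receptor of mature gut macrophages, was by contrast found in 22.97% ± 3.04 and 22.1% ± 1.67 of thinned members. In the same list of 25 resident genes, 19 had enough UMIs to be tested, among them Selenop at 279 to 815 CPM and Cd63, a tetraspanin, at 404 to 1146 over the 6 libraries. Since the genes of the list differed in this way, the cells are called C1q+ macrophages here and not resident.

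Members of Apc ICI tumours held fewer UMIs than those of AOM PN. Their median was 1889, 1643 and 1631 UMIs in Apc ICI libraries 1 to 3 against 2655, 7389 and 8098 in AOM PN libraries 1 to 3. The groups did not overlap, but AOM PN 1 was closer to the Apc ICI libraries than to the other AOM PN libraries (exact permutation test, two-sided p = 0.1, the smallest that 3 against 3 libraries allow). Members with under 1500 UMIs made up 42.2% to 45.4% of Apc ICI and 8.21% to 31.4% of AOM PN members. The Arg1-high macrophages of the same tumours, defined below, had the opposite order, with medians of 11513 to 14022 UMIs in Apc ICI against 8111 to 10314 in AOM PN.

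Haemoglobin transcripts took a median of 4.05%, 1.39% and 5.04% of a member's UMIs in Apc ICI against 0.323%, 0.187% and 0.0108% in AOM PN, while the median mitochondrial share lay between 1.17% and 1.69% in all 6 libraries. Library totals were 59309093 to 60075436 UMIs in Apc ICI against 87107277 to 98583066 in AOM PN. Of the barcodes of kept cells 264 occurred in more than 1 library, and 1 was that of a member in more than 1 library.

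Most members lay well inside the thresholds. The median C1q sum was 17 to 19 UMIs in Apc ICI against 26 to 41 in AOM PN, and all 3 chains were detected in 83.3% to 89.8% of members of a library. Just inside the C1q limit, 35 Apc ICI and 58 AOM PN members had a sum of 3, and just outside it 117 and 112 cells had a sum of 2. At the Arg1 limit 36 and 77 members had 2 UMIs, and 18 and 50 cells were left out with 3. Among Cd3e, Cd79a, Epcam and Flt3, Epcam removed most cells, 148 in Apc ICI against 117 in AOM PN that met all other criteria. Arg1 was at 0 in 79.6% to 91.3% of members.

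CPM are UMIs scaled to a common total in each library's summed cells, with the library totals adjusted by TMM. Those after thinning, by depth or in T cells use unadjusted totals. Per UMI, C1qa stood at 3223, 3490 and 4350 CPM in Apc ICI libraries 1 to 3 against 3957, 2374 and 2553 in AOM PN libraries 1 to 3. The groups overlapped through AOM PN 1. C1qb overlapped in the same way, at 3236 to 4335 CPM in Apc ICI against 2654 to 4064 in AOM PN. Since the rule used these genes, the values are a description only.

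C1q+ macrophages made up about 5% of cells in either model. They were 6.12%, 5.12% and 4.13% of kept cells in Apc ICI libraries 1 to 3 against 5.15%, 3.95% and 5.24% in AOM PN libraries 1 to 3. The means were 5.13% ± 0.993 and 4.78% ± 0.718 (SD, n = 3), and the groups overlapped (exact permutation test, two-sided p = 0.7). The direction turned with thinning: with the rule applied to cells thinned to 1500 UMIs, the shares were 3.75% ± 0.851 in Apc ICI against 5.18% ± 1.35 in AOM PN (exact permutation test, two-sided p = 0.2). These are shares of cells of at least 1500 UMIs. Thinning also lowered the counts of Arg1 and the excluding genes, so cells left out before could enter. Among cells of that depth, members went from 207 to 250 in Apc ICI 2 and from 615 to 796 in AOM PN 3. In T cells, which should lack C1q, 1.24% to 1.504% in Apc ICI against 2.91% to 4.08% in AOM PN passed the C1q threshold. A share of cells does not say how many macrophages a tumour held.

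Set against the Arg1-high macrophages, C1q+ cells took the larger part in Apc ICI and the smaller part in AOM PN 2 and 3. Arg1-high macrophages were cells with at least 3 Arg1 UMIs, the same exclusions and at least 2 of 6 macrophage genes, among them Csf1r, Adgre1 and Cd68. There were 337 in Apc ICI against 2024 in AOM PN. The demand for macrophage genes was not made of C1q+ members. Members that met it numbered 192, 232 and 129 in Apc ICI libraries 1 to 3, beside 127, 144 and 66 Arg1-high cells. In AOM PN libraries 1 to 3 such members numbered 408, 305 and 620, beside 461, 629 and 934 Arg1-high cells. The shares that follow are of all members. Of both classes together, C1q+ cells were 70.7%, 72.3% and 76.6% in Apc ICI libraries 1 to 3 against 56.6%, 35.8% and 41.8% in AOM PN libraries 1 to 3. The groups, with means of 73.2% ± 3.06 and 44.7% ± 10.7, did not overlap (exact permutation test, two-sided p = 0.1, the smallest possible). Arg1-high cells were 1.92% ± 0.639 of kept cells in Apc ICI against 6.12% ± 1.88 in AOM PN (exact permutation test, two-sided p = 0.1). These classes rest on Arg1 UMIs in cells of unequal depth. Among cells that passed the C1q threshold, thinned to 1500 UMIs, Arg1 was found in 20.6%, 26.8% and 22.1% in Apc ICI libraries 1 to 3 against 22.4%, 22.9% and 44.0% in AOM PN libraries 1 to 3. At this matched number of UMIs the groups overlapped, and AOM PN 3 alone stood apart (23.2% ± 3.25 and 29.8% ± 12.3, exact permutation test, two-sided p = 0.5). The plot of depth and shares by library shows both classes.

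**Figure D1:**
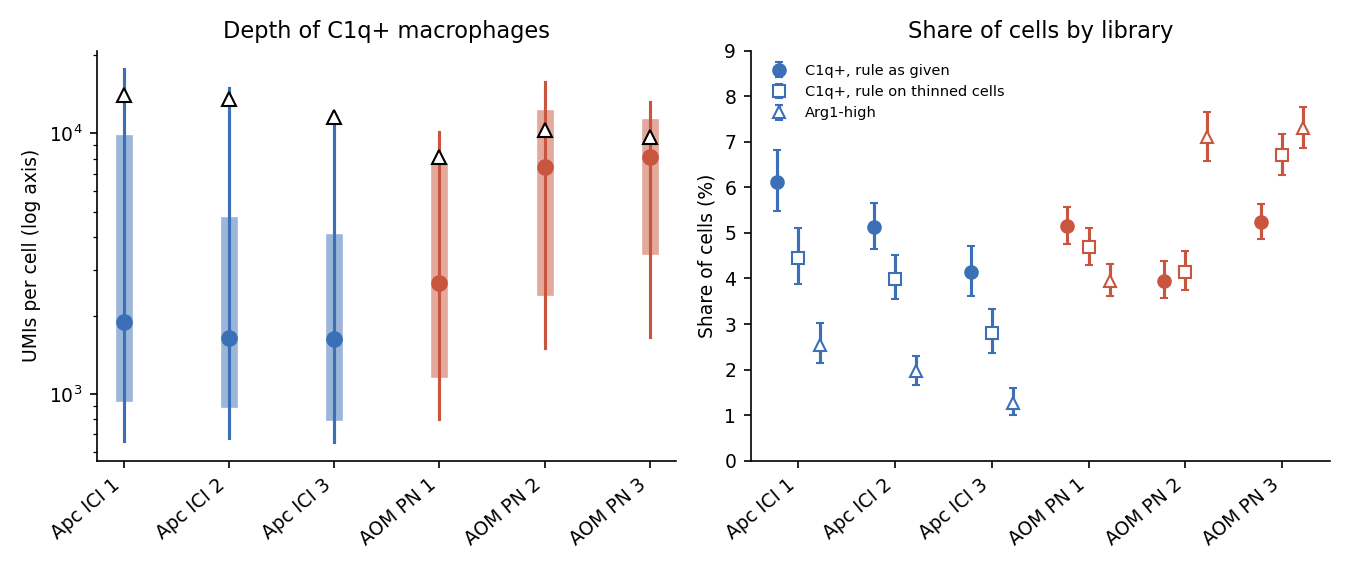
Left, UMIs per C1q+ macrophage in each library on a log axis (circle, median; thick bar, middle 50% of cells; thin line, 10th to 90th percentile), with the median of Arg1-high macrophages as an open triangle. Right, share of cells in percent with 95% Wilson intervals, which cover counting error only: C1q+ macrophages of kept cells (filled circles), the same with the rule applied to cells thinned to 1500 UMIs (open squares, over cells of at least 1500 UMIs) and Arg1-high macrophages of kept cells (open triangles). The filled circles of the groups overlap, from 3.95% to 6.12%, while Arg1-high shares run from 1.26% to 2.54% in Apc ICI against 3.95% to 7.31% in AOM PN.

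Between the models, C1q+ macrophages differed in genes of dead-cell uptake, lysosomes, inflammation and the Ifitm family. UMIs were summed over the members of each library and compared with edgeR's quasi-likelihood test on 8733 genes. At a Benjamini-Hochberg adjusted p below 0.05, 145 genes were higher in AOM PN, 1.66% of those tested, and 104 were lower, 1.19%. The calls depended on single libraries: 17 remained in number without Apc ICI 2, against 159 without Apc ICI 1, 117 without Apc ICI 3, 365 without AOM PN 1, 184 without AOM PN 2 and 99 without AOM PN 3, and 16 of the 17 were among the 249. Of 64 called genes followed through each of these fits, Axl, Chil3, Ddit4, Ifitm1, Ifitm2, Mfge8, Nrg1, Rsrp1 and the predicted pseudogene Gm8797, whose reads may come from a near-identical gene, were called in all 6, and all 64 kept their direction. All fold changes below are log2 of AOM PN over Apc ICI with their standard error, and adjusted p are from edgeR over all genes tested.

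Transcripts of mast cells moved with the model in these sums. The mast and basophil list summed to 40.2 to 116 CPM in Apc ICI against 1677 to 17884 in AOM PN, and 8 of its 9 tested genes were called higher. Of the members, 96.2%, 73.4% and 100% in AOM PN libraries 1 to 3 held a mast-list UMI, against 17.0%, 31.6% and 24.5% in Apc ICI libraries 1 to 3. In the T cells of the same libraries, the list stood at 75.7 to 170 CPM in Apc ICI against 4258 to 27092 CPM in AOM PN. Cells with 10 or more such UMIs were 65, 4 and 367 of the AOM PN members and 1, 3 and 0 of the Apc ICI members. The highest count in 1 member was 2479, 4298 and 7253 UMIs in AOM PN libraries 1 to 3. Scaled to unadjusted totals, as in the T cells, the list fell there without the cells of 10 or more from 4468, 1751 and 17766 CPM to 938, 201 and 1042. It then stood at 31.4, 105 and 83.1 CPM in Apc ICI libraries 1 to 3. Tph1, the serotonin synthesis enzyme of mast cells, was named after its values were seen and stood at 0, 0 and 2.74 CPM against 68.3, 11.3 and 158. The erythroid list, mostly haemoglobin, summed to 49495 to 178094 CPM in Apc ICI against 2887 to 73374 in AOM PN, with 1 gene called lower. The neutrophil list summed to 509 to 1883 CPM in Apc ICI against 1005 to 2954 in AOM PN, with 1 of 8 tested genes called higher, and no other list outside the macrophages summed to more than 360 CPM. Their part in the results below was not tested.

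Of the genes by which macrophages bind and clear dying cells, 4 fell in AOM PN and none rose. Axl, a receptor tyrosine kinase for coated apoptotic cells, stood at 192, 236 and 220 CPM in Apc ICI libraries 1 to 3 against 87.7, 87.6 and 88.1 in AOM PN libraries 1 to 3. The AOM PN libraries were almost identical and all lay below the lowest Apc ICI library (log2 change -1.30 ± 0.14, edgeR adjusted p = 0.0029). Gas6, the ligand that bridges Axl to phosphatidylserine, stood at 32.8, 58.5 and 36.9 CPM against 14.4, 5.50 and 4.19 (-2.54 ± 0.41, edgeR adjusted p = 0.0139). Receptor and ligand were thus lower in the same libraries, and the groups did not overlap in either.

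Mfge8, a second bridging protein, which links dying cells to integrins, was at 92.5, 160 and 115 CPM in Apc ICI libraries 1 to 3 against 17.5, 27.8 and 11.6 in AOM PN (-2.73 ± 0.31, edgeR adjusted p = 0.00414). Stab1, a scavenger receptor that also binds phosphatidylserine, was at 105, 116 and 124 against 68.7, 42.6 and 41.3 CPM (-1.18 ± 0.20, edgeR adjusted p = 0.0179). These 4 were the calls among 15 tested genes of the uptake list, with a list median of -0.20 beside -0.01 over all genes. Among the others, Tgm2, a transglutaminase, and Msr1, a scavenger receptor, had changes of 0.43 ± 0.21 and 0.10 ± 0.15, which missed the threshold. Leaving out Apc ICI 2 raised the edgeR adjusted p of Gas6 to 0.0857 and of Stab1 to 0.0849, and Stab1 also missed the threshold without Apc ICI 3, AOM PN 2 or AOM PN 3. Axl and Mfge8 stayed at 0.0356 or below in each such fit.

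Of 19 tested genes of tissue-resident macrophages, 7 fell and 1 rose, and the list median was -0.47. Mrc1, the mannose receptor CD206, was at 206, 194 and 122 CPM in Apc ICI libraries 1 to 3 against 59.8, 51.2 and 66.8 in AOM PN (-1.57 ± 0.20, edgeR adjusted p = 0.00724). Selenop, a secreted selenium carrier, was at 648, 674 and 815 CPM against 395, 279 and 305 (-1.13 ± 0.17, edgeR adjusted p = 0.0107). No AOM PN library reached the lowest Apc ICI library in either gene.

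Fcrls, a receptor-like gene of mouse macrophages and microglia, fell by 2.01 ± 0.32 and Igf1, a growth factor, by 1.92 ± 0.34. Pf4, a chemokine and one of the markers that went with the choice of these cells, was at 392, 725 and 673 CPM in Apc ICI libraries 1 to 3 against 262, 268 and 124 in AOM PN (-1.46 ± 0.31, edgeR adjusted p = 0.0396). Apoe was lower in each AOM PN library too, at 16722, 14136 and 20317 against 13213, 7146 and 7404 CPM, but missed the threshold (-0.88 ± 0.25, edgeR adjusted p = 0.0866). The remaining calls in the list were Gas6 and Stab1, given above, and the rise was Ccl24.

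Mrc1, Selenop and Fcrls missed the threshold without Apc ICI 2, at edgeR adjusted p of 0.0523, 0.0543 and 0.0810, and passed without any other library. Igf1 and Pf4 reached 0.0977 and 0.151 there and also missed the threshold without Apc ICI 3, AOM PN 2 or AOM PN 3. Of the 16 core macrophage genes, Adgre1, encoding F4/80, and Sirpa, the receptor for CD47, fell by 1.25 ± 0.26 and 0.57 ± 0.12 and none rose. Adgre1 missed the threshold without any one library other than AOM PN 1 (edgeR adjusted p up to 0.123), and Sirpa without any one library (up to 0.149).

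Lysosomal genes gave 3 falls and 1 rise in AOM PN. Ctsd, encoding cathepsin D, was at 1222, 1387 and 1420 CPM in Apc ICI libraries 1 to 3 against 656, 270 and 240 in AOM PN (-1.79 ± 0.33, edgeR adjusted p = 0.0228), and AOM PN 1 again lay nearest to Apc ICI. Grn, encoding the lysosomal protein progranulin, was at 426, 446 and 462 against 267, 183 and 205 CPM (-1.03 ± 0.16, edgeR adjusted p = 0.0119). Lgmn, an asparaginyl protease, fell by 0.59 ± 0.13, while Ctsl, encoding cathepsin L, rose by 0.67 ± 0.14. These were the calls among 18 tested genes, with a list median of -0.39. Without Apc ICI 2 the edgeR adjusted p were 0.0971, 0.0763, 0.157 and 0.152 for Ctsd, Grn, Lgmn and Ctsl. Ctsd passed only without AOM PN 1, Ctsl only without Apc ICI 1, and Grn without each of the other 5, while Lgmn did not pass with any library left out.

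Mmp12, the macrophage elastase, was the other large fall, at 325, 483 and 900 CPM in Apc ICI libraries 1 to 3 against 146, 212 and 118 in AOM PN (-1.84 ± 0.35, edgeR adjusted p = 0.0241). With Igf1 it made 2 falls among the 19 tested genes of matrix and growth factors, and none rose. Of 18 tested genes of lipid handling 1 fell, Gpnmb, at -2.97 ± 0.60, with overlapping groups at 15.05 to 104 CPM in Apc ICI against 3.44 to 15.1 in AOM PN. Slc48a1, a haem transporter, fell by 0.96 ± 0.17, alone among 13 genes of haem and iron handling. The highest edgeR adjusted p with 1 library left out was 0.0816 for Mmp12 and 0.0849 for Slc48a1, without Apc ICI 2, and 0.113 for Gpnmb, without AOM PN 3. Mmp12 also missed the threshold without AOM PN 3, Slc48a1 without Apc ICI 3, AOM PN 2 or AOM PN 3, and Gpnmb without Apc ICI 1, Apc ICI 2 or AOM PN 2. The plot of the genes lower in AOM PN shows 13 of these falls by library.

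**Figure D2:**
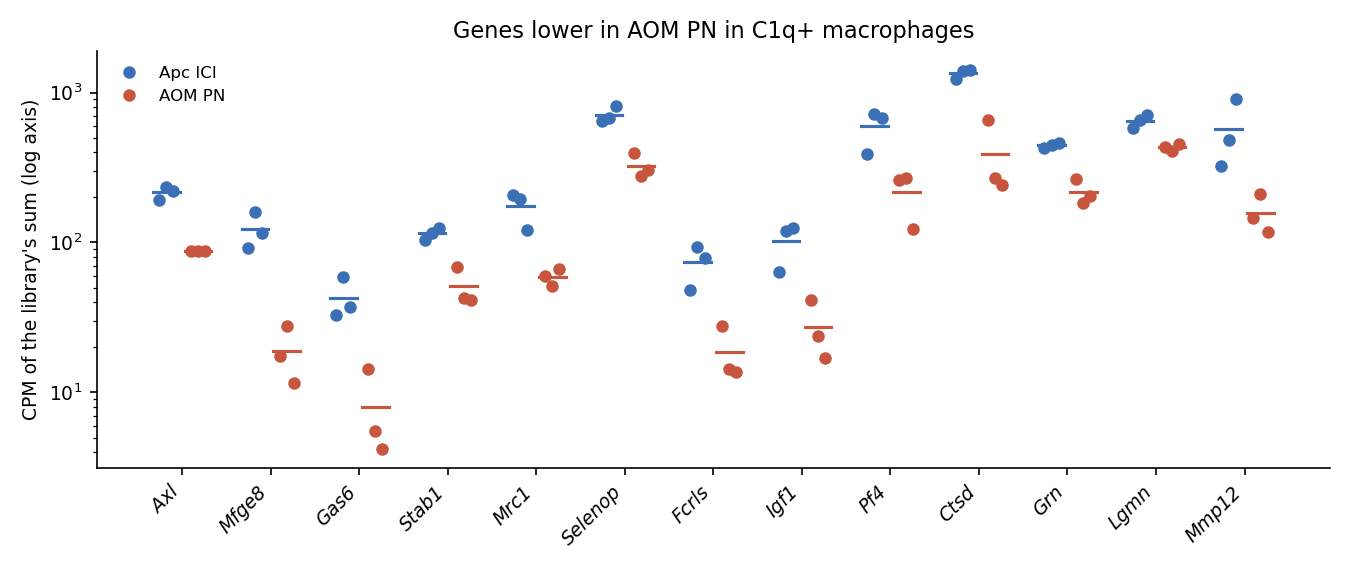
Levels of 13 genes in the summed RNA of C1q+ macrophages, in CPM on a log axis; each point is 1 library, blue Apc ICI and red AOM PN, and the line is the mean of 3. No red point reaches the lowest blue point of its gene, and the points of AOM PN 1, the leftmost red point of each gene, lie nearest to blue for Ctsd (656 CPM), Igf1 (41.5) and Gas6 (14.4).

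Genes of inflammation gave rises and no fall. Il1b, encoding interleukin 1 beta, was at 3871, 3115 and 2235 CPM in Apc ICI libraries 1 to 3 against 7133, 5733 and 7255 in AOM PN (1.12 ± 0.21, edgeR adjusted p = 0.0218). Nlrp3, the inflammasome sensor upstream of interleukin 1 beta processing, was at 293, 266 and 157 against 570, 536 and 476 CPM (1.13 ± 0.21, edgeR adjusted p = 0.0224). Ptgs2, the inducible cyclooxygenase, was at 197, 182 and 171 against 401, 296 and 380 CPM (0.97 ± 0.15, edgeR adjusted p = 0.0128). Every AOM PN library was above every Apc ICI library in these genes.

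Ccrl2, an atypical chemokine receptor, and Il1rn, the interleukin 1 receptor antagonist, rose by 1.17 ± 0.22 and 0.87 ± 0.19. Il1rn was named after its values were seen, as the last of 5 rises among 18 tested genes, with no fall and a list median of 0.63. Cxcl2, a neutrophil chemokine, had overlapping groups and a change of 0.53 ± 0.36. With Apc ICI 2 left out none of the 5 passed, with edgeR adjusted p of 0.0810 for Ptgs2, 0.0977 for Il1b, 0.0883 for Nlrp3, 0.0816 for Ccrl2 and 0.137 for Il1rn. Il1b missed the threshold also without Apc ICI 3 or AOM PN 3, Ccrl2 without AOM PN 2 or AOM PN 3, and Il1rn without Apc ICI 3, AOM PN 1 or AOM PN 2.

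Ddit4 and Hilpda, known to be induced by hypoxia, rose, while the list for that response, which holds neither, gave 1 call. Ddit4, an inhibitor of mTORC1 induced by hypoxia and other stress, was at 19.6, 19.2 and 15.05 CPM in Apc ICI libraries 1 to 3 against 75.3, 66.7 and 61.8 in AOM PN (1.88 ± 0.17, edgeR adjusted p = 0.00194). Hilpda, a lipid droplet protein induced by hypoxia, was at 168, 131 and 80.7 against 471, 387 and 430 CPM (1.74 ± 0.23, edgeR adjusted p = 0.00724). The groups lay far apart in both.

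Nrg1, a growth factor for ErbB receptors, was at 39.1, 34.2 and 36.9 CPM in Apc ICI libraries 1 to 3 against 104, 125 and 112 in AOM PN (1.63 ± 0.15, edgeR adjusted p = 0.00194). Klf4, a transcription factor of monocytes and macrophages, rose by 1.69 ± 0.34, and Ifrd1 and Grasp, a transcriptional co-regulator and a scaffold protein, by 1.59 ± 0.20 and 1.68 ± 0.25. Of the 18 tested genes of glycolysis and hypoxia, 1 was called, Hk2, encoding hexokinase 2 (1.02 ± 0.18, edgeR adjusted p = 0.0197), and the list median was 0.31. Vegfa, encoding the angiogenic factor, was higher in all AOM PN libraries but not called (0.85 ± 0.21, edgeR adjusted p = 0.0616). With Apc ICI 2 left out the edgeR adjusted p were 0.0523 for Hilpda and Ifrd1, 0.0739 for Grasp, 0.0977 for Hk2 and 0.137 for Klf4, while Ddit4 and Nrg1 stayed at 0.0342. Hk2 and Klf4 also missed the threshold without AOM PN 2 or AOM PN 3, and Klf4 without Apc ICI 3.

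Genes of recruited monocytes gave 4 rises and no fall among 17 tested, with a list median of 0.76. Chil3, a chitinase-like protein of monocytes and alternatively activated macrophages, was at 22.7, 13.5 and 21.9 CPM in Apc ICI libraries 1 to 3 against 90.4, 64.6 and 105 in AOM PN (2.20 ± 0.25, edgeR adjusted p = 0.00414). Thbs1, encoding thrombospondin, was at 595, 355 and 282 against 687, 1174 and 1375 CPM (1.39 ± 0.30, edgeR adjusted p = 0.0430). Chil3 is well separated, whereas for Thbs1 AOM PN 1 is little above Apc ICI 1. In thinned members Chil3 was found in 0% to 2.26% in Apc ICI against 4.75% to 10.1% in AOM PN. The groups were also apart in thinned T cells, at 0% against 1.43% to 2.10%. The part of such background in the rise was not tested. The weakly counted Gm9733 and Itga1 were the other rises, at 1.85 ± 0.36 and 2.90 ± 0.66. Plac8 (1.03 ± 0.33) and Fn1 (0.87 ± 0.32) missed the threshold. Of further monocyte markers, Ly6c2 was found in 6.24% ± 4.52 of Apc ICI against 3.93% ± 1.20 of AOM PN thinned members. Ccr2 was found in 14.9% ± 5.64 against 30.1% ± 14.0, and the groups overlapped in both. Plac8 did not overlap there, at 10.2% to 16.9% against 24.3% to 35.8%. In thinned T cells Plac8 was found in 7.26% to 11.4% against 16.1% to 25.6%. Chil3 stayed at an edgeR adjusted p of 0.0356 or below with any library left out. Thbs1, Itga1 and Gm9733 had 0.171, 0.193 and 0.108 without Apc ICI 2, and all 3 also missed the threshold without Apc ICI 3, AOM PN 2 or AOM PN 3, as Itga1 and Gm9733 did without Apc ICI 1.

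The alternative activation list was split, with 2 rises and 2 falls among 14 genes. Ccl24, an eosinophil chemokine of such macrophages, was at 30.1, 45.6 and 53.3 CPM in Apc ICI libraries 1 to 3 against 66.0, 772 and 1034 in AOM PN libraries 1 to 3 (3.90 ± 0.79, edgeR adjusted p = 0.0325). AOM PN 1 lay little above Apc ICI 3. The edgeR adjusted p was 0.137 without Apc ICI 2, and the rise was called with 1 library left out only where that was AOM PN 1. Mgl2, a lectin, fell with Mrc1, by 1.18 ± 0.18. Of the arginine enzymes, Arg2, the mitochondrial arginase, rose by 1.27 ± 0.24, and Slc7a2, an arginine transporter, fell by 2.96 ± 0.57. Havcr2, encoding the checkpoint receptor TIM-3, was at 88.2, 68.8 and 71.1 CPM in Apc ICI libraries 1 to 3 against 191, 164 and 159 in AOM PN (1.16 ± 0.15, edgeR adjusted p = 0.00724). It was 1 call among 13 checkpoint genes. These calls too were lost without Apc ICI 2, at edgeR adjusted p of 0.0763 for Mgl2, 0.0809 for Arg2, 0.1253 for Slc7a2 and 0.0543 for Havcr2. Arg2 was also lost without Apc ICI 1, Apc ICI 3 or AOM PN 2, and Slc7a2 without Apc ICI 3, AOM PN 2 or AOM PN 3. The plot of the genes higher in AOM PN shows 14 rises by library.

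**Figure D3:**
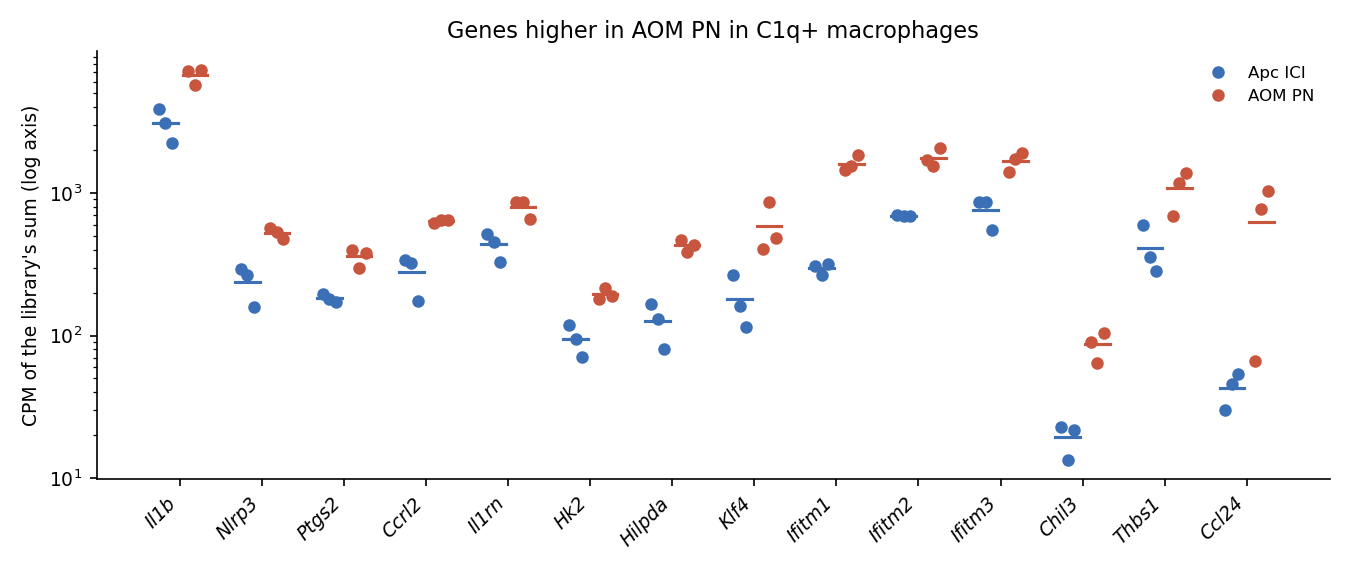
Levels of 14 genes in the summed RNA of C1q+ macrophages, in CPM on a log axis; each point is 1 library, blue Apc ICI and red AOM PN, and the line is the mean of 3. All red points lie above all blue points of their gene, closely for Ccl24 in AOM PN 1 (66.0 CPM against at most 53.3) and widely for Ifitm1 (1444 to 1845 against 266 to 319).

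Interferon-regulated genes did not move together. The Ifitm genes encode membrane proteins that restrict virus entry, and in mice they are neighbours on chromosome 7. Ifitm1 was at 306, 266 and 319 CPM in Apc ICI libraries 1 to 3 against 1444, 1537 and 1845 in AOM PN (2.44 ± 0.15, edgeR adjusted p = 0.000145), with the smallest p of the 8733 genes. Ifitm3 was at 860, 867 and 547 against 1393, 1731 and 1919 CPM (1.15 ± 0.20, edgeR adjusted p = 0.0179). Ifitm2, named after its values were seen, was at 704, 692 and 685 against 1699, 1545 and 2062 CPM (1.35 ± 0.14, edgeR adjusted p = 0.0029). These genes are close in sequence, and how reads that fit more than 1 of them were counted is not given in the sources used here.

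Of the 20 tested genes of the interferon list, Ifitm3 was the single rise and Rsad2 and Ifit1 were the falls, with a list median of -0.76. Rsad2, the antiviral enzyme viperin, was at 186, 74.0 and 118 CPM in Apc ICI libraries 1 to 3 against 16.7, 47.8 and 8.56 in AOM PN (-2.42 ± 0.54, edgeR adjusted p = 0.0456). Ifit1, which binds foreign RNA, was at 40.2, 21.2 and 26.0 against 3.88, 7.90 and 0.571 CPM (-3.02 ± 0.58, edgeR adjusted p = 0.0261). Isg15 and Bst2, which missed the threshold, had changes of -1.04 ± 0.31 and -0.89 ± 0.23. Ifitm3 had an edgeR adjusted p of 0.0763 without Apc ICI 2 and also missed the threshold without AOM PN 3. Rsad2 and Ifit1 had 0.140 and 0.112 without Apc ICI 1 and missed it without either other Apc ICI library, as Rsad2 did without AOM PN 1 or AOM PN 3, while Ifitm1 and Ifitm2 stayed at 0.00599 and 0.0356 or below in each such fit.

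The 150 bases before the start of these 5 genes are shown, since the same short motif lies before Ifitm2, which rose, and before Ifit1 and Rsad2, which fell. They are from RefSeq on GRCm38.p6, the same assembly as the mm10 build of the files, on the strand of the gene and 5′ to 3′, and all 5 genes were matched by symbol. Capitals mark matches, on either strand, to GAAA, any 2 bases (NN) and GAAA again, a short form of the interferon-stimulated response element bound by interferon-activated factors. The windows are chr7:140967926-140968075 (plus strand) for Ifitm1, chr7:140955962-140956111 (minus) for Ifitm2, chr7:141010745-141010894 (minus) for Ifitm3, chr19:34640739-34640888 (plus) for Ifit1 and chr12:26456453-26456602 (minus) for Rsad2.
Ifitm1: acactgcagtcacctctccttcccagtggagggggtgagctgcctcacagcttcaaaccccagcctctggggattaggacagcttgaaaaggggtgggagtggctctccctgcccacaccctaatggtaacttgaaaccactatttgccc
Ifitm2: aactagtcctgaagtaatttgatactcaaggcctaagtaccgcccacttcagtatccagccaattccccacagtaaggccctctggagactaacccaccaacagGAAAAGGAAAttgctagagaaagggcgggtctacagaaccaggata
Ifitm3: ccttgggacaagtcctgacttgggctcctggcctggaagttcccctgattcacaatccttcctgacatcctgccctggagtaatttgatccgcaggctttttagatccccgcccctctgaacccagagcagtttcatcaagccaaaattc
Ifit1: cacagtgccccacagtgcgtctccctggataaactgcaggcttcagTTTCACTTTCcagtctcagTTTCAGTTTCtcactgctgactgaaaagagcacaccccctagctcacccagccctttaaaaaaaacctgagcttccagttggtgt
Rsad2: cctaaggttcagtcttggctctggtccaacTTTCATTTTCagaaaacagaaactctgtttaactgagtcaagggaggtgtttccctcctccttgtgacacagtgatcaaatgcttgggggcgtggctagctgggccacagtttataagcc
The motif was found in the 250 bases before the start in 978 of 32851 RefSeq windows, or 2.98%. It was present once for Ifitm2 and Rsad2 and at 2 places for Ifit1. No match lay upstream of Ifitm1 or Ifitm3, and Ifitm3 had 2 matches that reached past its start, which are not printed. The letters were thus found before 1 gene that rose (Ifitm2), not before Ifitm1 or Ifitm3, which rose too. They were found before both genes that fell (Ifit1, Rsad2), and a match does not show binding.

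Antigen presentation, complement and respiration gave no call. None of 9 MHC class II genes, 9 complement genes outside the rule or 14 genes of oxidative phosphorylation passed edgeR's threshold, and neither did any of the 16 early-response and heat shock genes that dissociation can induce. Cd74, the invariant chain, was at 18342, 15028 and 19202 CPM in Apc ICI libraries 1 to 3 against 24472, 19789 and 20366 in AOM PN (0.30 ± 0.17, edgeR adjusted p = 0.367). Its groups thus did not overlap, though narrowly, and it was not called on thinned sums either (edgeR adjusted p = 0.211). After thinning Cd74 was found in 84.5% to 94.1% of Apc ICI against 96.8% to 98.7% of AOM PN members. By depth the Cd74 groups were apart from 1500 to 5000 UMIs, higher in AOM PN, and overlapped in the shallower and deeper members. H2-Ab1, a class II chain, stood at 5076 to 5870 and 5318 to 6022 CPM (0.04 ± 0.14). By depth its groups were apart in opposite directions, at 4436 to 5703 against 5874 to 6456 CPM without haemoglobin in members of 1500 to 5000 UMIs and 6425 to 7523 against 5566 to 6098 in deeper ones. After thinning, H2-Ab1 was found in 72.9% to 82.5% of Apc ICI members, against 87.9% to 91.9% in AOM PN and 3.23% to 13.6% of T cells (members, exact permutation test, two-sided p = 0.1, the smallest possible). Junb, an early-response factor, had a change of 0.79 ± 0.24 and an edgeR adjusted p of 0.106. Of 16 cell cycle genes, Ube2c, Ccna2 and Birc5 fell by 1.13 ± 0.25, 1.46 ± 0.33 and 1.18 ± 0.27. With 1 library left out the edgeR adjusted p reached 0.140 for Ube2c and 0.166 for Ccna2, without Apc ICI 1, and 0.190 for Birc5, without Apc ICI 2; Ube2c and Birc5 passed only without AOM PN 1, and Ccna2 did not pass with any library left out.

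Since depth differed between the models, genes were also read within ranges of UMIs per cell, as CPM without haemoglobin and with no test. There were 396 Apc ICI and 278 AOM PN members under 1500 UMIs, 280 and 439 from 1500 to 5000 and 222 and 904 at 5000 or more. Ctsd was lower in AOM PN at every depth, at 2295 to 2655 against 605 to 1218 CPM in the shallowest members and 949 to 1237 against 200.2 to 479 in the deepest. Axl, Grn, Stab1, Gas6, Mmp12 and Rsad2 were also apart at each depth. Some of these rested on few UMIs. Rsad2 had 16 in Apc ICI against 0 in AOM PN under 1500 UMIs per cell and 70 against 14 from 1500 to 5000. Gas6 had 43 against 13 under 1500. In thinned members without Arg1, Rsad2 overlapped, at 45.8 to 94.1 against 8.28 to 49.9 CPM. Axl was at 150 to 333 against 121 to 123 CPM in the shallowest and 221 to 293 against 79.9 to 85.6 CPM in the deepest members. Other falls held in part of the ranges. Pf4 overlapped under 1500 UMIs (1033 to 1935 against 871 to 1874 CPM) and from 1500 to 5000. Mfge8 and Mrc1 overlapped from 1500 to 5000, and Selenop, Igf1 and Adgre1 under 1500, where Adgre1 was at 157 to 205 against 139 to 242 CPM. All 6 were apart in the deepest members.

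Ifitm1 was higher in AOM PN at every depth, with no overlap. It stood at 134 to 203 against 302 to 645 CPM in the shallowest members, 88.0 to 128 against 607 to 1599 from 1500 to 5000 UMIs and 368 to 504 against 1783 to 1871 in the deepest members. Il1b, Ifitm3, Nlrp3, Ptgs2, Klf4, Chil3, Thbs1 and Ccl24 were apart in the deepest members and overlapped in both ranges below. Il1b was at 659 to 1183 against 1179 to 1725 CPM under 1500 UMIs, 662 to 2242 against 1427 to 3608 from 1500 to 5000 and 3471 to 5206 against 6825 to 8723 at 5000 or more. Ifitm3 was at 654 to 1242 against 357 to 756 CPM under 1500 UMIs, a lower mean in AOM PN, at 319 to 1063 against 573 to 1047 from 1500 to 5000 and at 742 to 1074 against 1712 to 2036 at 5000 or more. With all members of at least 1500 UMIs thinned to 1500, Il1b, Ifitm1 and Ifitm3 had edgeR adjusted p of 0.00498, 0.000247 and 0.0289. Thinning left out the shallowest members and did not even out the original depth of the others. Among those thinned, members of 5000 or more UMIs were 222 of 502 in Apc ICI against 904 of 1343 in AOM PN. The thinned sums thus did not test the changes in cells of equal depth. Of the 64 called genes followed, 53 could be tested on thinned sums and 40 were called there.

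The calls that thinning ended were, with their edgeR adjusted p on thinned sums, Havcr2 (0.0502), Ccrl2 (0.0538), Thbs1 (0.0543), Dst (0.0748), Ctsl (0.116), Sirpa (0.127), Il1r2 (0.132), Lgmn (0.135), Ube2c (0.147), Mgl2 (0.204), Ankrd37 (0.237), Arg2 (0.287) and Birc5 (0.332). The falls of Axl, Mfge8, Gas6, Stab1, Mrc1, Selenop, Pf4, Ctsd, Grn and Mmp12 were called after thinning too, at 0.0289 or below. Gpnmb, Ifit1, Slc7a2, Ccna2, Gm9733 and Itga1 had too few UMIs left to be tested.

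C1q+ and Arg1-high macrophages of the same tumour differed in several gene groups. Levels were compared within each library, with no test, since the rule chose the cells. A gene is counted where C1q+ cells were higher, or lower, in 6 of 6 libraries both in all UMIs and after thinning to 1500. Over the 9287 genes tested, 5.33% were higher and 7.38% were lower in C1q+ cells by this count. Of the MHC class II genes 8 of 9 were higher, as were 10 of 19 resident genes, 9 of 19 lysosomal and 9 of 16 cell cycle genes. Cd74 had a median of 20858 CPM over libraries after thinning in C1q+ cells (range 14303 to 26545) and 7358 in Arg1-high cells (6243 to 12030), so the ranges did not overlap. Selenop was at 645 (386 to 866) against 97.4 (49.0 to 182), and Apoe at 16680 (10168 to 20934) against 3961 (2642 to 8774).

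Inflammatory and hypoxia genes were the reverse, with 17 of 19 and 16 of 18 lower in C1q+ cells. Cxcl2 was at 3296 CPM (1034 to 5031) in C1q+ and 13081 (10806 to 24337) in Arg1-high cells. Vegfa was at 226 (124 to 370) against 632 (575 to 836), and Fn1, fibronectin, at 389 (119 to 578) against 1912 (1319 to 2329). Of 17 monocyte genes 7 were lower and none higher, and no interferon gene was counted in either direction. Axl, lower in AOM PN, was higher in C1q+ than in Arg1-high cells of each library, at a median of 130 against 87.7 CPM. The plot of lists compares the counts by list. Thinning did not match the classes in original depth, and Arg1-high cells had the higher median UMIs in each library. Levels also differed by depth within C1q+ cells, read as CPM without haemoglobin. From under 1500 to 5000 or more UMIs, mean Apoe went from 24776 to 6987 and Vegfa from 57.5 to 412 in AOM PN. H2-Ab1 went from 4842 to 6926 in Apc ICI. The part of depth in the class differences was not tested.

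**Figure D4:**
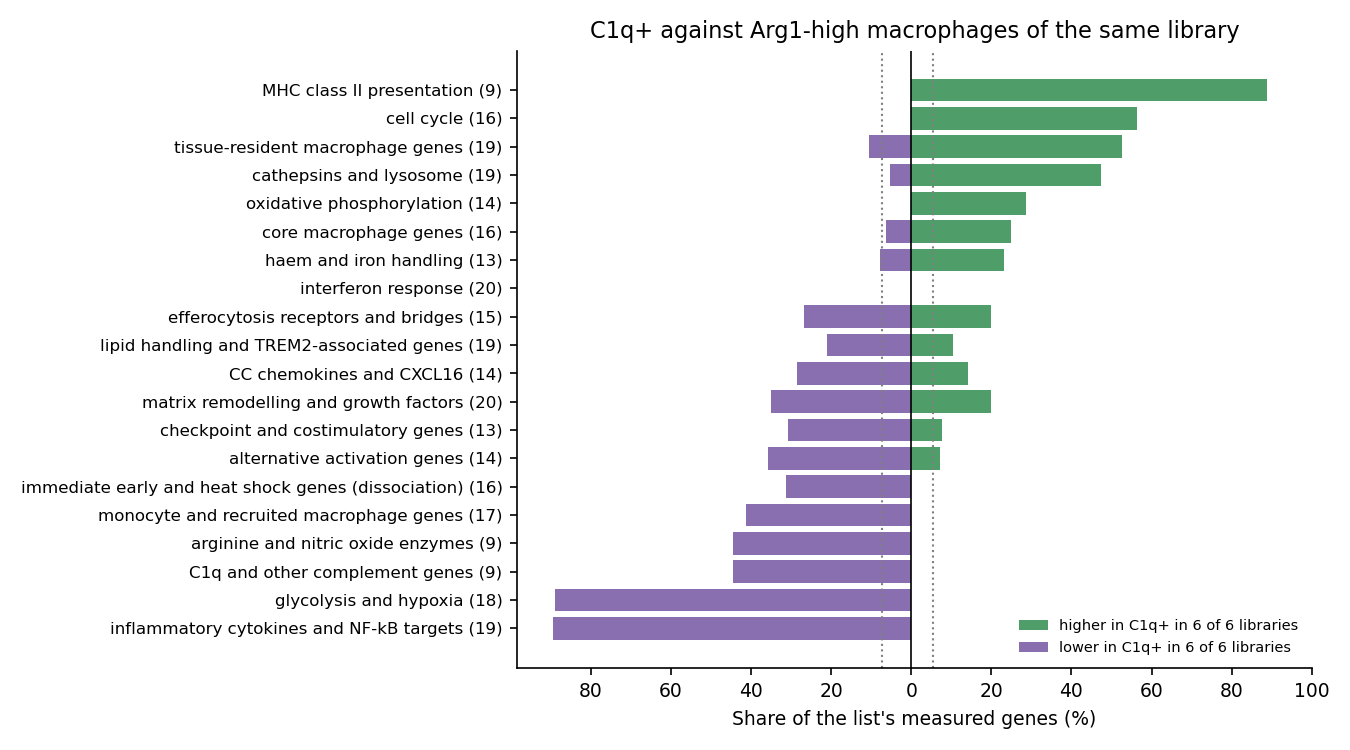
For each gene list (number of measured genes in brackets), the share of genes in percent that were higher (green, right) or lower (purple, left) in C1q+ than in Arg1-high macrophages in 6 of 6 libraries, in all UMIs and after thinning. Dotted lines mark 5.33% and 7.38%, the shares over all 9287 genes; MHC class II presentation reaches 88.9% to the right, and the inflammatory list 89.5% to the left.

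The classes had no gap between them in Arg1 or C1q. Cells with 1 or 2 Arg1 UMIs were 86 of the Apc ICI and 224 of the AOM PN members of at least 1500 UMIs, and 1025 of the 2361 Arg1-high cells also passed the C1q threshold. After thinning, Fn1 was at 71.9 to 472 CPM in members without Arg1, 359 to 1714 in members with 1 or 2 UMIs, 1061 to 2217 in Arg1-high cells with C1q and 1594 to 2492 in those without. Cd74 went from 14842 to 27930 through 12303 to 19454 and 7755 to 14401 to 4147 to 8610 CPM. Within the members, Fn1 was higher where Arg1 was detected in all 6 libraries and Cd74 was lower in all 6. These levels are a description of cells chosen by Arg1 and C1q, whose depth before thinning was not matched. The plot of 6 genes by class shows each library.

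**Figure D5:**
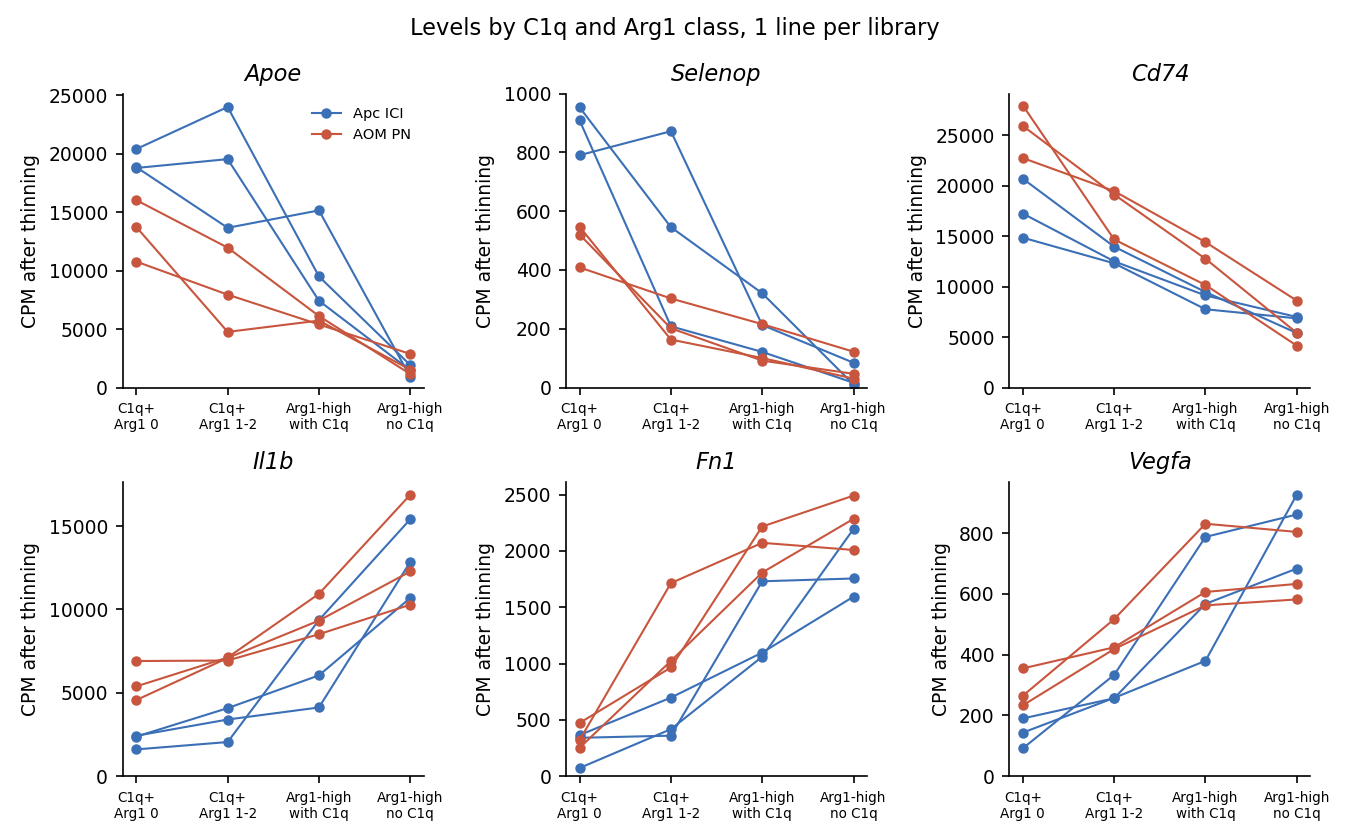
Levels of 6 genes, in CPM after thinning cells to 1500 UMIs, in C1q+ macrophages with 0 or with 1 to 2 Arg1 UMIs and in Arg1-high macrophages that passed ("with C1q") or did not pass ("no C1q") the C1q threshold; each line is 1 library, blue Apc ICI and red AOM PN. Cd74 falls along the classes, from 14842 to 27930 CPM at the left to 4147 to 8610 at the right, and Il1b goes from 1601 to 6904 to 10285 to 16885 CPM.

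No change between the models was shown to be particular to C1q+ macrophages. A test of the difference between the change in C1q+ and in Arg1-high sums, with the library as a block, called 0 of 9287 genes in edgeR (0%), with 530 at an unadjusted p below 0.05, and DESeq2 called 1. The Arg1-high sums alone gave 21 calls among 8940 genes, but a call in one class and not in the other is no test. For Ifitm1 the change was 2.44 in C1q+ and 0.84 in Arg1-high cells, with an edgeR adjusted p of 0.806 for the difference, and for Il1b it was 1.12 and 0.27, at 0.833.

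The smallest p for a higher change in C1q+ cells was that of Il1r2, the decoy receptor of interleukin 1. It was at 176, 255 and 224 CPM in C1q+ cells of Apc ICI libraries 1 to 3 against 355, 348 and 369 in AOM PN, a change of 0.71, against -1.07 in Arg1-high cells (difference 1.70, edgeR adjusted p = 0.279). The rise of Il1r2 in C1q+ cells, at an edgeR adjusted p of 0.0417, was lost without any one library (up to 0.120). Among the next were Ankrd37, Dmkn and Clec4n, at edgeR adjusted p of 0.396 to 0.483. For a lower change they were Maf, a transcription factor of C1q+ macrophages, Plxnb2, Clec4a1, Bin1 and 9130230L23Rik. Maf was at 89.3, 122 and 112 CPM in Apc ICI against 84.2, 70.8 and 61.3 in AOM PN, a change of -0.58 beside 0.69 in Arg1-high cells (difference -1.24, edgeR adjusted p = 0.396). Mrc1 had opposite signs, -1.57 beside 1.82, with an edgeR adjusted p of 0.792 for the difference. In Arg1-high cells it stood at 13.9, 77.5 and 14.2 CPM in Apc ICI libraries 1 to 3 against 28.8, 29.2 and 338 in AOM PN libraries 1 to 3, so the sign there rests on AOM PN 3, and the other AOM PN libraries lay within the Apc ICI range.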

How the data were processed

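Whole colon tumours were dissociated, sorted with DAPI to remove dead cells and made into droplet libraries, per the labels' protocols. The deposited matrices of the 6 libraries hold UMI counts per gene and barcode; the submitters' processing notes name Cell Ranger 6.1.2 and mm10, and no further step is given in the sources used here. All 31053 features were read, and a UMI is 1 counted molecule.

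Members were chosen by the stated counts, and the members, gene lists and tests were chosen with earlier results of these data known. UMIs were summed per library over members or Arg1-high cells. Sums were scaled by TMM, filtered by filterByExpr and tested with edgeR 4.0.16 (quasi-likelihood, R 4.3.3) on Apc ICI against AOM PN, without the 9 genes of the rule, with Benjamini-Hochberg adjustment at 0.05. The difference between the classes was an interaction with the library as a block. Shares were compared by exact permutation (scipy 1.17.1), with Wilson intervals at 95%, which cover counting error only. Thinning drew 1500 UMIs from each cell at random and left out shallower cells. Doublet scores, from simulated doublets at an expected 0.8% per 1000 barcodes (scikit-learn 1.9.0), marked 118 members, which were kept; an alternative leaves them out. The tests were tried on simulated counts first.

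Named genes were the 5 markers, the 12 largest rises and 12 largest falls among calls whose groups do not overlap with at least 50 CPM in a group, up to 4 members of each list by adjusted p and 2 by level, and the 5 genes of smallest interaction p in each direction. Some genes that the rule names are not reported here. Genes named after their values were seen are marked so; Il1rn, Ifitm2 and the mast cell genes are such. Alternatives were TMM against DESeq2 1.42.0 and its size factors, filters, thinning, stricter members, the replicate block and each library left out. Of the 408 symbols in 28 lists, 406 were found as 1 feature.

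Whether replicate numbers pair the libraries is not given in the labels. The depth of a sum, not of a cell, sets the precision of a test, and 3 libraries a group limit every p.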

Additional observations from a re-analysis of the deposited data

How the results depend on the processing

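The number of genes called in C1q+ macrophages, AOM PN over Apc ICI, was 249. It became 441 with DESeq2 (226 of them shared) and 1052 with no filter on low counts (248 shared). On members thinned to 1500 UMIs it was 116 (83 shared, over 4186 genes tested), and with the replicate number as a block 152 (130 shared). The labels do not say whether the numbers pair the libraries. Same-numbered libraries deviated from their group means with correlations of -0.253, -0.112 and -0.183, which cannot decide this with 3 libraries a group. With 1 library left out the number of genes called ran from 17 to 365, and with DESeq2's size factors, a C1q sum of at least 5, haemoglobin left out, doublet-scored cells left out or, added after seeing the data, at least 2 of 6 macrophage genes or members of at least 1500 UMIs unthinned, from 210 to 282. With the rule itself applied to thinned cells it was 222, of which 107 were shared. The 0 calls of the interaction test became 135 with no filter on low counts and 1 with DESeq2, and stayed 0 in the other settings run. The difference in the share of kept cells that are C1q+ macrophages, -0.344 percentage points, became 1.43 with the rule applied to thinned cells, -28.5 as a share of C1q+ and Arg1-high cells together and 0.774 with at least 2 macrophage genes, and ran from -0.840 to 0.152 with 1 library left out. H2-Ab1, at 0.04 and not called, was at -0.0064 with at least 2 macrophage genes and ran from -0.024 to 0.087 with 1 library left out. Among all settings for single genes, 1172 values kept direction and call, 244 lost the call, 56 gained it and 3, all of H2-Ab1, changed direction. The cause was not tested. Depth limits shares and weakly counted genes in Apc ICI, where 502 of 898 members reached 1500 UMIs against 1343 of 1621.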

Other observations

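Some gene groups separated C1q+ from Arg1-high cells beyond those in the report. Chemokines were split, with Ccl8 and Ccl12, which attract monocytes, at medians of 123 and 137 CPM over libraries after thinning in C1q+ cells against 1.98 and 17.8 in Arg1-high cells, while Ccl24 was at 58.8 against 1379. Adamdec1, a protease of gut macrophages, was at 124 against 13.8, and Spp1, osteopontin, at 376 against 2634. Hpgds, a prostaglandin D synthase, was at 76.9 against 11.1. These genes were chosen after their values were seen, and no test was made.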
